A study of Saccharomyces cerevisiae with 16 samples.

Results

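The 2 vacuole mutants compared here were *vph1∆* and *fab1∆*, and the members are their 8 libraries, 4 per strain, of the 16 RNA-seq libraries of the series. The libraries were taken by strain label alone, while the comparison was chosen with earlier results of these data known. The study sequenced RNA of budding yeast cells that had lost a vacuolar pH regulator, together with wild-type and *atg18∆* cells, which enter here only as levels shown side by side. All strains derive from the prototrophic DHY211 parent and share *MKT1(30G)*, *TAO3(1493Q)* and *CAT5(91M)*, together with *MIP1(661T)* and *RME1(INS-308A)*, and are *SAL1+* and *HAP1+*. The deletions were *vph1∆::NatMX* and *fab1∆::NatMX*, so that both mutants carry the same drug marker, which wild type lacks. According to the methods, deletions were made in a diploid and haploids were recovered by tetrad dissection, and nothing states that more than 1 segregant per strain was sequenced. Cells grew at room temperature in SDC (yeast nitrogen base, amino acids and dextrose) and were collected at an OD600 of 0.05. The replicates were duplicate cultures on each of 2 days, and the labels do not say which replicate numbers shared a day.

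The vacuole of budding yeast is an acidic store of amino acids, metal ions and polyphosphate. It is acidified by the V-ATPase, a proton pump with a membrane sector (V0) and a cytosolic sector (V1), in which Vph1 is the subunit that places the pump at the vacuole while its homologue Stv1 serves the Golgi and endosomes. Fab1 is the lipid kinase that makes PI(3,5)P2 on the vacuole membrane, a lipid needed for vacuole fission, retrograde traffic and osmotic responses. The direct comparison asks in which genes loss of the pump subunit and loss of the lipid kinase give different transcript levels.

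Levels are TPM, transcript abundances that allow for transcript length and sum to 1000000 in each library. Depth cannot be read from such values, so precision comes from the spread between the 4 libraries. A difference is the mean of log2(TPM + 1) in *vph1∆* minus that in *fab1∆*, with its standard error (SE), and it understates the change of low genes. Differences were tested with limma over the 6449 genes whose TPM averaged 1 or more in the 8 libraries, and a gene was called at an adjusted p under 0.05. In bulk RNA, fewer cells of a type and less RNA per cell cannot be told apart.

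The targeted genes came first. *VPH1* (YOR270C, chromosome XV from 828052 to 830574, R64) had a TPM of 0.191, 0, 0.00544 and 0.0104 in the 4 *vph1∆* libraries and of 76.9, 79.6, 81.4 and 84.8 in the 4 *fab1∆* libraries. *FAB1* (YFR019W, chromosome VI from 184502 to 191338) had a TPM of 1.28, 1.39, 1.58 and 1.49 in *fab1∆* and of 2.14, 2.81, 3.20 and 2.57 in *vph1∆*. *VPH1* was therefore near 0 where it was deleted, whereas *FAB1* in the libraries labelled *fab1∆* was lower in every library but not at 0, at 53.5% of the *vph1∆* mean, a difference of 0.59 that was 0.18 with the trend of differences with gene length removed. Both differences had the smallest two-sided exact permutation p that 4 against 4 libraries allow, 0.0286. *FAB1* lay between 2.84 and 3.55 in wild type without replicate 3, a library that stood apart, at 1.77 in that replicate, and between 2.49 and 3.37 in *atg18∆*. What part of the *FAB1* reading frame the marker replaced is not given in the sources used here, and *fab1∆* below stands for the libraries so labelled.

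The genes next to the deletions were less alike. *YFR018C*, beside *FAB1*, had a TPM of 91.2, 90.8, 80.2 and 85.8 in *fab1∆* and of 48.4, 48.7, 32.2 and 44.3 in *vph1∆*, a difference of -1.004 (limma, adjusted p = 0.00013), and wild type without replicate 3 lay between 36.0 and 43.0. *FSF1*, beside *VPH1*, was higher in *vph1∆* by 0.20 on the log2 scale (limma, adjusted p = 0.023), a call that was lost without *fab1∆* replicate 1, 2 or 3 (0.20, 0.20 and 0.18). *CSS2* and *PAC1*, on the other sides of *FAB1* and *VPH1*, differed by 0.02 and 0.10 with overlapping libraries (limma, adjusted p = 0.82 and 0.30). *ATG18*, whose product binds PI(3,5)P2 and restrains the kinase, was lower in *vph1∆* (9.73 ± 0.372) than in *fab1∆* (12.3 ± 0.587, SD, n = 4 libraries), by 0.31 on the log2 scale. *ATG18* also lies near *FAB1*, beyond *CSS2* on chromosome VI, from 194812 to 196314. Wild type without replicate 3 lay between 9.05 and 10.5 for *ATG18*, below every *fab1∆* library. Whether the deletion at *FAB1* has a part in this difference was not tested.

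The strains differed in many genes by small amounts and in a few by a lot. Of the genes tested, 2800 were called (43.4%), 1154 higher in *vph1∆* (17.9%) and 1646 lower (25.5%), and these shares are the background against which each group below is read. The median difference of the called genes was 0.32 in size and that of all genes tested was -0.01. Only 14 called genes were higher by 1 or more on the log2 scale, against 112 that were lower by 1 or more. The split of calls depended on scaling: with each library scaled to its median, 1763 genes were higher and 1475 lower, and with quantile normalization 2025 and 1433. The number higher in *vph1∆* was also 711 without *fab1∆* replicate 1, 745 without *fab1∆* replicate 2, 742 without *vph1∆* replicate 2 and 1876 without *vph1∆* replicate 1. In a fit with all 16 libraries, including the wild-type replicate that stood apart, 36 genes were higher and 397 lower.

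Among the 8 libraries, the first principal component separated the strains and held 68.8% of the variance. The second held 13.9% and set *vph1∆* replicate 1 apart from the rest. Pearson correlations across genes were at least 0.992 within a strain, and the 10 most abundant genes held 14.6 to 15.9% of the TPM, against 31.2% in wild-type replicate 3. Long genes were more often higher in *vph1∆*: the median difference was -0.16 in the shortest of 4 equal groups of genes and 0.18 in the longest, where the median lengths were 471 and 2628 bases. Lengths were known for 89.9% of the genes tested, and several groups and genes below are therefore also given with this trend removed.

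**Figure D1:**
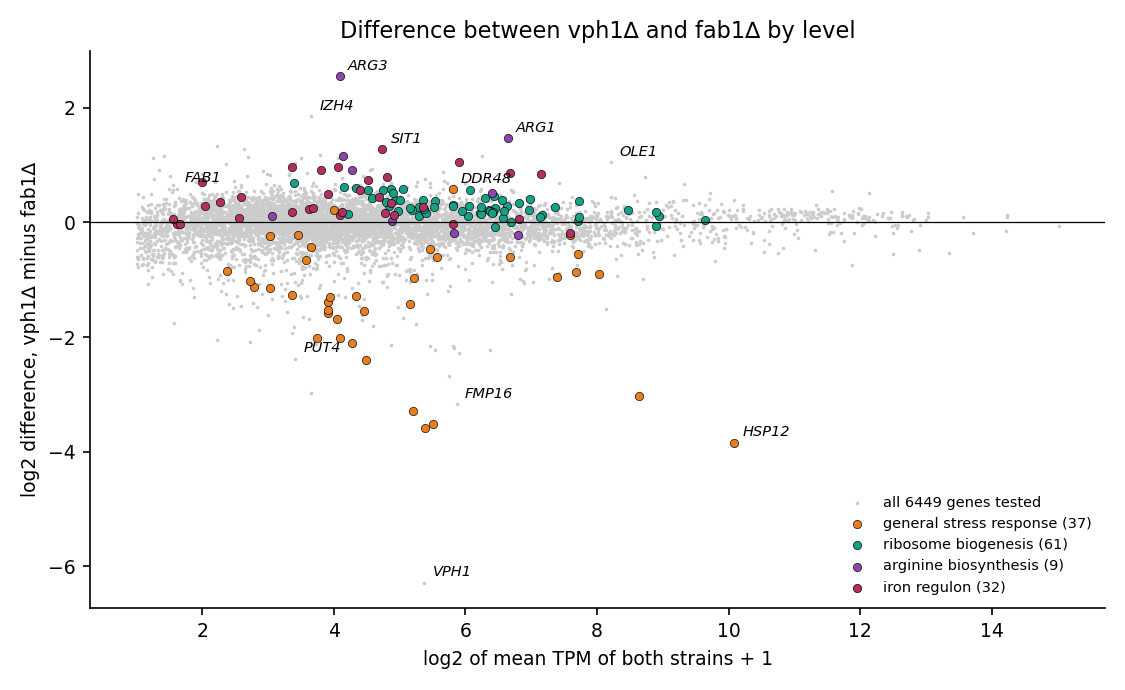
Each point is 1 gene, with the log2 of its mean TPM over both strains plus 1 on the x axis and the log2 difference, *vph1∆* minus *fab1∆*, on the y axis; colours mark 4 gene lists. Most of the general stress response lies far below 0 and most of ribosome biogenesis slightly above it, and *ARG3* at 2.55 is the highest gene.

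The widest gap was in the general stress response. This program is driven by the zinc-finger factors Msn2 and Msn4, which bind the stress response element (STRE) and are held out of the nucleus by TORC1 and protein kinase A in growing cells. Of 37 genes of this list, 34 were lower in *vph1∆*, 1 was higher and 2 were not called, with a median of -1.14. The 2 not called were *MSN2* and *MSN4* themselves, and the member that was higher was *DDR48*.

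Stretches of 300 bases that begin 450 bases before the start codon of 3 of these genes are shown because they carry the element in several copies. They come from RefSeq R64, 5′ to 3′ on the strand of the gene, with AGGGG or its reverse complement CCCCT in capitals. *HSP12* is read from chrVI:106806-107105 (plus strand), *DDR2* from chrXV:231906-232205 (minus strand) and *SIP18* from chrXIII:610566-610865 (plus strand), and they hold 5, 3 and 2 matches.
HSP12: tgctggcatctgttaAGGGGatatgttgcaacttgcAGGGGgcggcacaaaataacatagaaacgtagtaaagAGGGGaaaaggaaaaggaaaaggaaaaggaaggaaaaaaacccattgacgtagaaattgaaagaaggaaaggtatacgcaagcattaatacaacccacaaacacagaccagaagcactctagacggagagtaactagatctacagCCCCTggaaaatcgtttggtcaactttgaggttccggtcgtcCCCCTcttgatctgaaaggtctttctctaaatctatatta
DDR2: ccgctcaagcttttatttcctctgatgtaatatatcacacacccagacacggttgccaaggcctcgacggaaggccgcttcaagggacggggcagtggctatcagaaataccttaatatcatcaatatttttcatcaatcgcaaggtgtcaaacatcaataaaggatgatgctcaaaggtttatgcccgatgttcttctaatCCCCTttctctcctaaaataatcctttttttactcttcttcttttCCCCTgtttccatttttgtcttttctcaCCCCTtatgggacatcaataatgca
SIP18: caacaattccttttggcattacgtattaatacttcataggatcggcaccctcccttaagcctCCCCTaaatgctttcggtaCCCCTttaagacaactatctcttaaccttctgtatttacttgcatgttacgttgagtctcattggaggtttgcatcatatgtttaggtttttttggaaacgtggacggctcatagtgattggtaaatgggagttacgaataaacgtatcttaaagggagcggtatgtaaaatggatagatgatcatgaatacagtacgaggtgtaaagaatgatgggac

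The pentamer was found, on either strand, in 23.5% of the 5781 windows of this length that could be read. It was in 58.3% of the 96 windows of genes lower in *vph1∆* by 1 or more on the log2 scale, in 29.6% of the 1481 windows of all genes called lower and in 20.0% of the 1108 of genes called higher. In the stress list, which is named for Msn2 and Msn4, 28 of 37 windows held it. *GRE1* held none in this window and *HSP26* held 1, and both were among the 12 lowest genes by the naming rule. The share over a whole list, here and below, follows from its membership and not from the strains compared.

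*HSP12* (YFL014W, chromosome VI from 107256 to 107585), which encodes a small membrane-stabilising heat shock protein, had a TPM of 139, 104, 161 and 164 in *vph1∆* and of 2121, 2002, 2029 and 1925 in *fab1∆*. After *VPH1* it had the largest difference of all genes tested, -3.84 ± 0.12 (SE; limma, adjusted p = 1.5e-08), and its mean was 14.2-fold higher in *fab1∆*. The *vph1∆* libraries lay within or near the range of wild type without replicate 3 (138 to 214) and of that replicate (160), while those of *fab1∆* stood far above. *DDR2*, a multistress protein gene, had a TPM of 77.2, 74.1, 102 and 90.8 in *vph1∆* and of 701, 696, 734 and 696 in *fab1∆*, 8.22-fold higher.

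*GRE1* and *SIP18* encode hydrophilins, proteins that protect cells during drying. The TPM of *GRE1* was 6.76, 6.48, 4.45 and 4.42 in *vph1∆* and 81.7, 79.4, 70.3 and 74.2 in *fab1∆*. That of *SIP18* was 9.11, 7.83, 4.44 and 4.85 in *vph1∆* and 86.0, 79.1, 83.7 and 79.7 in *fab1∆*. Their differences were -3.59 and -3.51 (limma, adjusted p = 2.8e-08 and 3.8e-07), and in both genes replicates 1 and 2 of *vph1∆* lay above replicates 3 and 4. *PAI3*, the inhibitor of vacuolar proteinase A, is the divergent neighbour of *SIP18* and differed by -2.27, with a mean of 19.6 ± 1.51 in *vph1∆* and 98.5 ± 5.04 in *fab1∆* (SD, n = 4 libraries).

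*HSP26* (YBR072W, chromosome II from 382030 to 382674), a small heat shock protein that binds unfolded proteins, had a TPM of 5.99, 5.42, 5.79 and 6.19 in *vph1∆* and of 77.7, 69.5, 57.5 and 59.9 in *fab1∆*, a difference of -3.29. Here *atg18∆* replicates 1 to 4 had a TPM of 6.62, 5.91, 108 and 106, so that replicates 3 and 4 lay above every *fab1∆* library. *EGO4* and *YCL048W-A* split by number in *atg18∆* as well. Their TPM in replicates 1 to 4 was 9.96, 13.9, 67.7 and 72.6, and 2.15, 2.18, 22.1 and 21.2. Between the strains compared they differed by -2.68 and -2.98. *FMP16*, a mitochondrial protein gene, and *ALD3*, a stress-induced aldehyde dehydrogenase gene, differed by -3.17 and -2.39, and both had *atg18∆* ranges (11.01 to 20.9 and 6.24 to 13.7) far below the *fab1∆* means of 104 and 36.7.

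*DDR48*, a flocculent-specific stress protein gene, was singled out after its values were seen because it went the other way. Its TPM was 66.9, 78.1, 64.6 and 55.7 in *vph1∆* and 44.9, 45.9, 41.5 and 41.9 in *fab1∆*, a difference of 0.59 (limma, adjusted p = 0.00064). All *vph1∆* libraries were above all of *fab1∆*, and above wild type without replicate 3 (33.4 to 45.0).

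**Figure D2:**
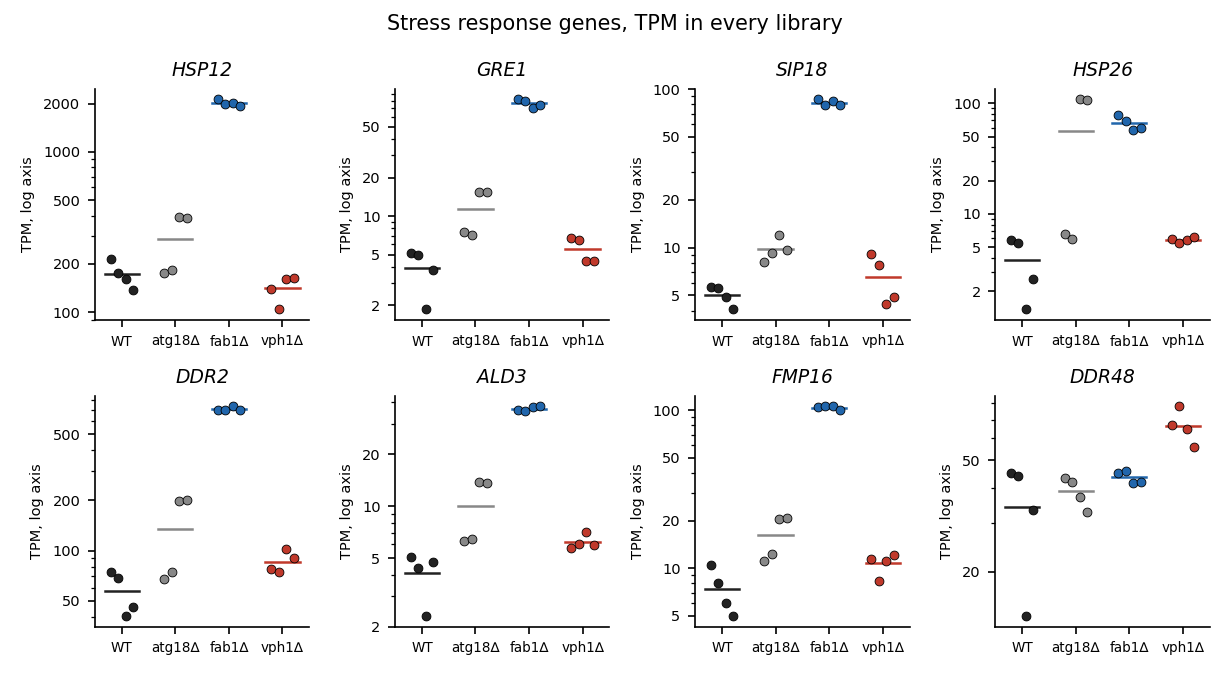
TPM on a log axis of 8 stress genes in each library of wild type (WT), *atg18∆*, *fab1∆* and *vph1∆*; points are replicates 1 to 4 from left to right and lines are means. In 7 genes the 4 *fab1∆* libraries stand above the 4 *vph1∆* libraries by at least 5.92-fold in the mean, and *DDR48* is the reverse.

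Heat shock proteins and disaggregases, of which *HSP26* is also on the stress list, were called lower at about the background share. Of 26 chaperone genes on the list, 7 were lower in *vph1∆* (26.9%, against 25.5% of all genes tested) and 2 higher, with a median of -0.19. The median was -0.39 in replicates 1 and 2 alone, -0.01 in replicates 3 and 4 alone, where 6 were higher, and -0.09 without *vph1∆* replicate 1. The lower ones included the stress-inducible forms *SSA4* (-1.27), *SSE2* (-1.07) and *HSP42* (-1.01), whereas the 2 higher ones were *SSB1* and *SSB2*, ribosome-bound chaperones of growing cells, by 0.19 each, both named after their values were seen and neither called with the length trend removed (0.11 each). Without *vph1∆* replicate 3, 12 were lower, and with the length trend removed 13 were.

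Genes that store and mobilise carbohydrate were also lower in *vph1∆* than in *fab1∆*. Glycogen genes were lower in 9 of 15 cases and higher in none, with a median of -0.40, and trehalose genes in 5 of 7, with a median of -0.38. *GPH1*, glycogen phosphorylase, had a TPM of 2.95, 3.32, 4.43 and 3.92 in *vph1∆* and of 15.1, 14.2, 15.5 and 16.6 in *fab1∆*, a difference of -1.82 (limma, adjusted p = 6.9e-07). *GSY1*, glycogen synthase, and *GLC3*, the branching enzyme, differed by -1.40 and -1.21, so that genes of both synthesis and breakdown were lower. In trehalose synthesis, the regulatory subunit *TSL1* differed by -1.15 and the catalytic *TPS1* and *TPS2* by -0.61 and -0.55. For *GPH1*, wild type without replicate 3 (2.73 to 3.93) overlapped *vph1∆* and lay below *fab1∆*, and for *TPS1* (63.0 to 74.6) it lay below both strains.

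Genes of hexose phosphorylation were mainly lower in *vph1∆*, 6 of 11 on the list. *HXK1*, the hexokinase made when glucose is scarce, had a TPM of 20.4, 19.5, 19.9 and 17.8 in *vph1∆* and of 96.3, 93.1, 86.2 and 90.8 in *fab1∆*, a difference of -2.18 (limma, adjusted p = 6.8e-09). Glucokinase *GLK1* (-1.03), the related *EMI2* (-0.92) and phosphoglucomutase *PGM2* (-1.68) were lower too. *HXK2*, the main hexokinase during growth on glucose, was the only 1 of 11 genes on this list that was higher (2 with median scaling), with a mean of 377 ± 24.3 in *vph1∆* and 339 ± 13.8 in *fab1∆* (SD, n = 4 libraries; difference 0.15; limma, adjusted p = 0.035). It was named after its values were seen, and its call was lost without any 1 of the 4 *fab1∆* libraries (0.17, 0.16, 0.12 and 0.16) or of *vph1∆* replicates 2 and 3 (0.12 and 0.14).

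Hexose transporters held differences of both signs. The high-affinity carrier *HXT7* had a TPM of 23.9, 27.2, 32.3 and 29.1 in *vph1∆* and of 134, 133, 134 and 140 in *fab1∆*, a difference of -2.23, and *HXT4* and *HXT6* differed by -1.81 and -1.46. *HXT6* and *HXT7* are nearly identical, so the reads may have been divided between them with error. *HXT1*, the low-affinity carrier of high glucose, had a TPM of 192, 239, 210 and 198 in *vph1∆* and of 126, 132, 124 and 137 in *fab1∆*, a difference of 0.69 (limma, adjusted p = 4.5e-05), and was likewise named after its values were seen. It was the only 1 of 18 genes of hexose transport and glucose signalling that was higher, against 7 that were lower, although 3 were higher with median scaling and 4 without *vph1∆* replicate 1. For *HXT7*, wild type without replicate 3 (41.3 to 56.7) lay between the strains, and for *HXT1* (143 to 160) it did so as well.

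In glycolysis and fermentation 12 of 24 genes were lower in *vph1∆* and none higher, with a median of -0.18 (8 lower and 1 higher with median scaling, and 3 higher without *vph1∆* replicate 1). In replicates 1 and 2 alone 15 were lower and none higher (median -0.30), and in replicates 3 and 4 alone 6 were lower and 3 higher (median -0.08). *ENO1*, enolase, and *TDH1*, the minor glyceraldehyde-3-phosphate dehydrogenase, differed by -0.75 and -1.13, and *ALD4*, the mitochondrial aldehyde dehydrogenase, by -1.67. Both *ENO1* and *TDH1* have close paralogs. Of 15 genes of glycerol and osmotic response 9 were lower, among them *GPD1* and *GPP2*, which make glycerol, by 0.74 and 0.73, and *GUT2*, which oxidises it, by 0.78.

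Arginine biosynthesis was higher in *vph1∆* in most of its genes. Of 9 genes 5 were higher, 1 was lower and 3 were not called, with a median of 0.52. Gcn4, the activator of amino acid synthesis genes, binds TGACTC, and the upstream windows of *ARG1* and *ARG3* are shown because each carries 2 matches, in capitals as TGACTC or its reverse complement GAGTCA. They are read from chrXV:218761-219060 and chrX:268349-268648, both on the plus strand of R64.
ARG1: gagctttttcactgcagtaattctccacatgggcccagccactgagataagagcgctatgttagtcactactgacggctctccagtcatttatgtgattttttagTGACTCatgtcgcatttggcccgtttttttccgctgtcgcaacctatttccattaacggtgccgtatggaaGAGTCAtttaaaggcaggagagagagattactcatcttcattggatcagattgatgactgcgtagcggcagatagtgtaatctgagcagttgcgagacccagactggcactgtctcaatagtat
ARG3: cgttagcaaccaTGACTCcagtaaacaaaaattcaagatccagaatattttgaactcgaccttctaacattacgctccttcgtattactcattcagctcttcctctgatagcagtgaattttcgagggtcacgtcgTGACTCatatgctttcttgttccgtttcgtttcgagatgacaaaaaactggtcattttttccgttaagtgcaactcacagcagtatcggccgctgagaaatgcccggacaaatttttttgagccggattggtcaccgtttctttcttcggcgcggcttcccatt

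The hexamer was in 7 of the 9 arginine windows and in 8.39% of all windows, in 8.57% of the windows of genes called higher and in 8.91% of those called lower.

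*ARG3* (YJL088W, chromosome X from 268799 to 269815), ornithine carbamoyltransferase, had the highest difference of all genes tested, 2.55 ± 0.15 (SE; limma, adjusted p = 1.2e-06). Its TPM was 20.5, 25.5, 35.5 and 31.3 in *vph1∆* and 3.63, 3.69, 4.76 and 3.52 in *fab1∆*, 7.23-fold higher in the mean. *ARG1*, argininosuccinate synthase, had a TPM of 134, 137, 159 and 155 in *vph1∆* and of 55.4, 56.2, 47.6 and 48.8 in *fab1∆*, a difference of 1.47. The strains thus did not overlap in either gene, and the *fab1∆* libraries lay close to wild type without replicate 3 for *ARG3* (4.06 to 6.06) but above it for *ARG1* (27.0 to 30.8).

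*ARG56*, which makes 2 early enzymes of the ornithine branch as 1 precursor, differed by 1.17 and *ARG8*, acetylornithine aminotransferase, by 0.92. *CPA1*, the small subunit of carbamoyl phosphate synthetase, had a mean of 98.5 ± 10.4 in *vph1∆* and 68.2 ± 2.65 in *fab1∆* (SD, n = 4 libraries; 0.52; limma, adjusted p = 0.00044). The open reading frame *YOR302W*, which encodes the leader peptide of *CPA1* and was added after its values were seen, was higher by 0.80. *ARG7*, acetylornithine acetyltransferase, was the member that was lower, by 0.18, and *ARG4*, argininosuccinate lyase, differed by -0.22 with overlapping libraries (limma, adjusted p = 0.074). Without *vph1∆* replicate 3 the difference of *ARG4* was -0.30 and passed the threshold, as it did at -0.23 with the length trend removed. *ARG2*, which opens the ornithine branch, differed by 0.11 without being called. *GCN4* itself had a mean of 595 ± 110 in *vph1∆* and 489 ± 43.9 in *fab1∆* and was not called (0.27; limma, adjusted p = 0.11), but passed at 0.40 without *vph1∆* replicate 1.

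**Figure D3:**
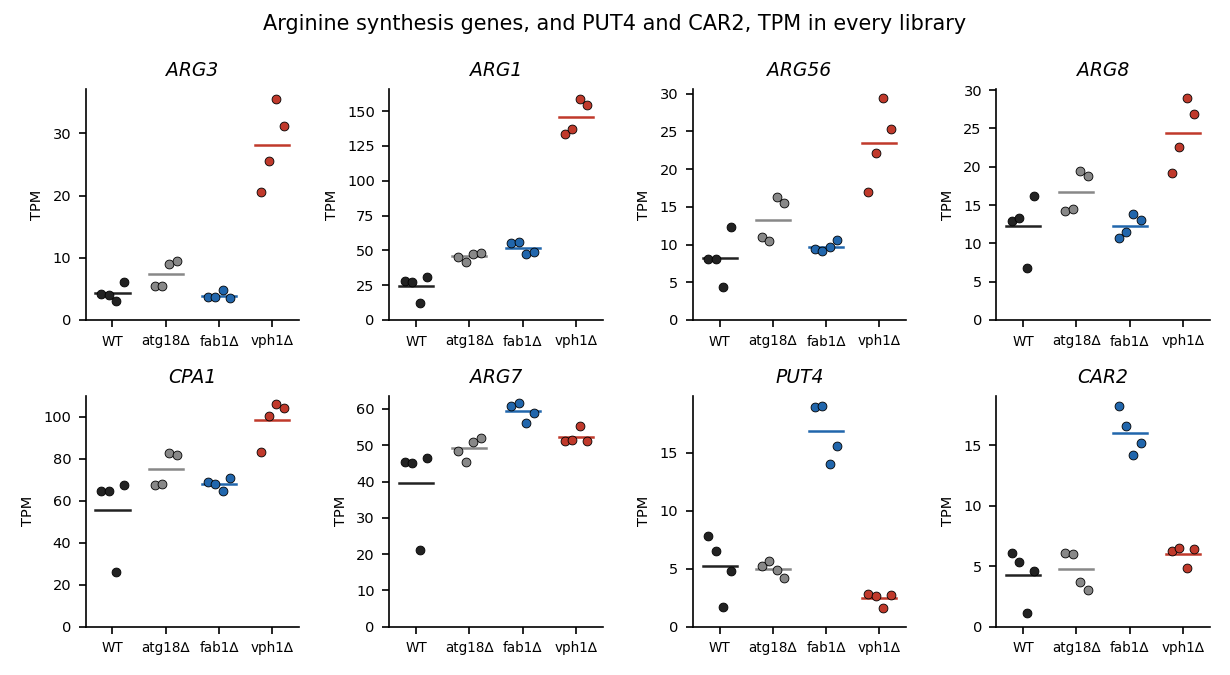
TPM of 6 arginine synthesis genes and of *PUT4* and *CAR2* in each library of wild type (WT), *atg18∆*, *fab1∆* and *vph1∆*; points are replicates 1 to 4 from left to right, lines are means, and axes start at 0. The 4 *vph1∆* libraries are the highest in *ARG3*, *ARG1*, *ARG56* and *CPA1* and above *fab1∆* in *ARG8*, and the 4 *fab1∆* libraries in *ARG7*, *PUT4* and *CAR2*.

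Genes that take up or degrade poor nitrogen sources went the other way. In nitrogen catabolite repression, where GATA factors act through GATAAG, 12 of 20 genes were lower in *vph1∆* and none higher, with a median of -0.38 (4 higher without *vph1∆* replicate 1), and 18 of 20 windows held GATAAG or CTTATC against 14.1% of all windows. *PUT4*, the proline permease, had a TPM of 2.83, 2.68, 1.62 and 2.72 in *vph1∆* and of 18.9, 19.0, 14.1 and 15.6 in *fab1∆*, a difference of -2.37 (limma, adjusted p = 1e-06). *CAR2*, ornithine aminotransferase of arginine breakdown, differed by -1.29. *MEP2*, the high-affinity ammonium permease, and *GAP1*, the general amino acid permease, differed by -1.09 and -1.01, and *DAL3*, of allantoin use, by -0.77. For *PUT4*, wild type without replicate 3 (4.83 to 7.84) lay between the strains, while for *GAP1* (5.31 to 7.25) it overlapped *vph1∆*.

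In the list of glutamate, glutamine, asparagine and alanine metabolism 4 of 17 genes were higher and 5 lower, with a median of 0.01. The shares of 23.5 and 29.4% were near those of all genes tested, 17.9 and 25.5%. Of the lower genes 3 were *GAD1*, *UGA2* and *UGA1* of the GABA shunt, by 1.39, 0.62 and 0.49. *ARO9* and *ARO10*, which act in the breakdown of aromatic amino acids, were lower by 1.05 and 0.57. Of 24 genes of purine and one-carbon synthesis 11 were lower, among them *ADE17*, *SHM2* and the glycine cleavage gene *GCV1* by 0.90, 0.88 and 0.80, and 3 were higher (7 higher with median scaling and 6 without *vph1∆* replicate 1). In NAD synthesis 7 of 14 genes were lower and 2 higher, among them *BNA5* and *BNA1* of the kynurenine pathway by 1.31 and 0.82 and the nicotinamidase *PNC1* by 0.95. *OPT1*, a transporter of oligopeptides and glutathione, was among the 12 highest genes by the naming rule, with a TPM of 11.5, 16.3, 15.6 and 14.6 in *vph1∆* and of 6.27, 6.61, 5.54 and 5.92 in *fab1∆* (difference 1.12).

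Iron uptake genes separated the *vph1∆* libraries from each other as well as from *fab1∆*. The iron regulon, controlled by Aft1, had 13 of 32 genes higher in *vph1∆*, none lower and a median of 0.31, whereas in replicates 3 and 4 alone 4 were higher and 4 lower. *SIT1*, a siderophore transporter, had a TPM of 52.6, 66.0, 18.5 and 16.7 in *vph1∆* and of 12.7, 13.7, 12.01 and 12.9 in *fab1∆*. *FET3*, the multicopper oxidase of high-affinity iron uptake, had 186, 207, 77.7 and 72.7 in *vph1∆* and 67.2, 66.1, 62.6 and 68.7 in *fab1∆*. In both genes replicates 1 and 2 of *vph1∆* stood far above replicates 3 and 4, which lay just above *fab1∆*. Its element TGCACCC (or GGGTGCA) was in 56.2% of the 32 windows of the list and in 1.49% of all windows.

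The siderophore transporters *ARN1* and *ENB1* had the same shape. For *SIT1*, *ARN1*, *FET3* and *ENB1* the differences were 1.27, 0.97, 0.87 and 0.74 over all libraries (limma, adjusted p = 0.023, 0.034, 0.044 and 0.045). They were 2.08, 1.68, 1.54 and 1.34 in replicates 1 and 2 alone, and 0.46, 0.26, 0.19 and 0.14 in replicates 3 and 4 alone. The median of the regulon was 0.61 in replicates 1 and 2 and 0.07 in replicates 3 and 4. The call of *SIT1* was lost without *vph1∆* replicate 2 (0.94), and those of *ARN1*, *FET3* and *ENB1* were lost without *vph1∆* replicate 1 or 2 (0.78 and 0.69, 0.67 and 0.61, 0.60 and 0.49) and without any 1 *fab1∆* library (0.94 to 1.00, 0.84 to 0.89, 0.72 to 0.75). With the length trend removed *FET3* and *ENB1* were not called either (0.78 and 0.66). The number of the regulon's genes called higher was 8 without *vph1∆* replicate 1 and 4 without *vph1∆* replicate 2, and 4, 6, 7 and 8 without *fab1∆* replicates 1 to 4. One gene was lower without *vph1∆* replicate 2, without *fab1∆* replicate 3 and with a term for replicates 1 and 2 against 3 and 4. Since the labels do not tie numbers to days, the part of a growth day in this was not tested.

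*IZH4* (YOL101C, chromosome XV from 126982 to 127920), a membrane protein gene linked to zinc homeostasis, ranked next after *ARG3*, with a TPM of 20.7, 25.0, 15.3 and 14.5 in *vph1∆* and of 3.98, 4.14, 4.56 and 4.79 in *fab1∆* (difference 1.86 ± 0.15 SE; limma, adjusted p = 1e-05). It also had higher values in replicates 1 and 2, yet all 4 *vph1∆* libraries were at least 3-fold above every *fab1∆* library. The zinc regulon, controlled by Zap1, was evenly divided, with 8 of 22 genes higher and 8 lower and a median of -0.08 (4 higher without *fab1∆* replicate 1 or without *vph1∆* replicate 2 or 3, and 5 lower without *fab1∆* replicate 2 or *vph1∆* replicate 4). Among its lower members were the zinc uptake genes. *ZRT2* had a TPM of 27.7, 29.9, 33.7 and 33.5 in *vph1∆* and of 73.3, 73.3, 68.4 and 76.9 in *fab1∆* (-1.20), and *ZRT1* differed by -0.80, from 1.27 lower in replicates 1 and 2 alone to 0.33 lower in replicates 3 and 4 alone.

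Transcripts of *OLE1* and *MGA2*, genes of fatty acid desaturation, were higher in *vph1∆*. *OLE1* (YGL055W, chromosome VII from 398628 to 400160), the only acyl-CoA desaturase of this yeast, had a TPM of 380, 537, 369 and 325 in *vph1∆* and of 177, 187, 188 and 209 in *fab1∆* (difference 1.06; limma, adjusted p = 0.00018). *MGA2*, which encodes a membrane-anchored activator of *OLE1*, had 11.7, 16.2, 13.8 and 11.2 in *vph1∆* and 5.20, 5.62, 6.74 and 6.15 in *fab1∆* (1.03). In both genes the strains did not overlap and *fab1∆* lay within the range of wild type without replicate 3 (165 to 202 for *OLE1* and 5.42 to 7.94 for *MGA2*), apart from the highest library of *OLE1* and the lowest of *MGA2*.

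*ACC1*, acetyl-CoA carboxylase, was higher by 0.64, and by 0.24 with the length trend removed. Of 27 genes of ergosterol synthesis 8 were higher and 2 lower, with *ERG11*, the target of azole drugs, higher by 0.42. Phospholipid synthesis held members on the other side: *INO1*, inositol phosphate synthase, had a mean of 20.9 ± 1.03 in *vph1∆* and 40.5 ± 2.88 in *fab1∆* (-0.92), both above wild type without replicate 3 (5.06 to 7.89), and *OPI3*, a phospholipid methyltransferase, had 683 ± 64.7 and 1091 ± 49.7 (-0.68; SD, n = 4 libraries).

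**Figure D4:**
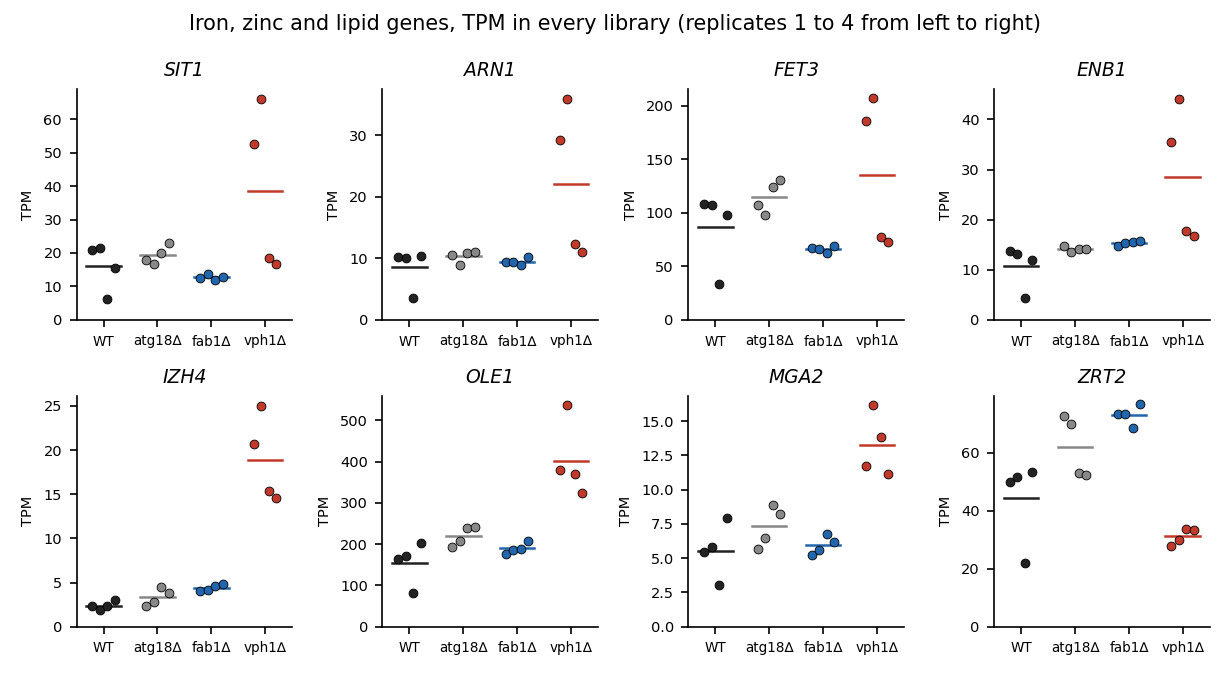
TPM of iron, zinc and lipid genes in each library of wild type (WT), *atg18∆*, *fab1∆* and *vph1∆*; points are replicates 1 to 4 from left to right, lines are means, and axes start at 0. *SIT1*, *ARN1*, *FET3* and *ENB1* are high in *vph1∆* replicates 1 and 2, while *IZH4*, *OLE1* and *MGA2* are above *fab1∆* in all 4 *vph1∆* libraries and *ZRT2* is below.

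Genes that build ribosomes were higher in *vph1∆* by a small and even amount. Of 61 ribosome biogenesis genes 51 were higher and none lower, with a median of 0.26. *UTP22* and *RRP12*, pre-rRNA processing factors, and *RPA190* and *RPA135*, the large subunits of RNA polymerase I, differed by 0.61, 0.58, 0.58 and 0.57 (limma, adjusted p between 0.0013 and 0.0062). These are long genes, and with the length trend removed their differences were 0.34, 0.32, 0.25 and 0.31, all still called. *RPA190* had a TPM of 30.2, 42.6, 45.3 and 36.9 in *vph1∆* and of 22.7, 23.1, 28.8 and 26.8 in *fab1∆*, so that the strains did not overlap but lay close. For *RPA190*, wild type without replicate 3 (28.9 to 43.2) overlapped *vph1∆* and lay above *fab1∆*. The PAC element GATGAG (or CTCATC) was in 31.1% of the 61 windows against 17.2% of all windows. The median of the list was 0.22 with the length trend removed, and 27 genes were higher in replicates 1 and 2 alone, but none passed in the fit with all 16 libraries.

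Ribosomal proteins shared the direction with a smaller median, 0.12 in both subunits. Of 56 small-subunit genes 33 were higher and 1 lower (*RPS30A*, by 0.09), and of 81 large-subunit genes 47 were higher and 2 lower (*RPL15B* by 0.25 and *RPL26A* by 0.10). With the length trend removed 52 and 76 were higher, while with median scaling 22 and 35 were. The 3 lower genes were named after their values were seen, and with the length trend removed none of them was called and *RPS30A* had the other sign (0.02). The largest differences among the named genes were in *RPS28B* (0.56), *RPL8A* (0.52) and *RPL7B* (0.47), each of which has a close paralog, so that reads may have been divided with error. *RPS28B* is short, and differed by 0.84 with the length trend removed. *RPL8A* had a TPM of 1046, 1004, 984 and 938 in *vph1∆* and of 702, 686, 682 and 693 in *fab1∆*, with wild type without replicate 3 between 868 and 891.

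Genes of the mitochondrial ribosome and the proteasome were lower in *vph1∆* than in *fab1∆*. Of 69 mitochondrial ribosome genes 55 were lower and none higher, with a median of -0.21 that became -0.11 once the length trend was removed, when 28 were lower. With median scaling 44 were lower and 1 higher. *MRP20* and *RSM19*, proteins of its large and small subunit, differed by -0.51 and -0.50, and *RSM19* by -0.24 with the trend removed. Of 35 proteasome genes 23 were lower and none higher (2 without *vph1∆* replicate 1), with a median of -0.21 (-0.15 without the length trend). *PRE6*, of the core particle, had 115 ± 3.52 in *vph1∆* and 151 ± 8.12 in *fab1∆*, and *RPT2*, of the regulatory particle, had 56.3 ± 4.62 and 72.7 ± 1.19 (SD, n = 4 libraries). Wild type without replicate 3 overlapped *vph1∆* and lay below *fab1∆* in *MRP20* (32.4 to 37.6), *RSM19* (112 to 131), *PRE6* (112 to 122) and *RPT2* (55.0 to 65.7).

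Respiratory genes were lower in *vph1∆* in part. In complexes II and III 11 of 15 genes were lower and none higher, with a median of -0.28, and 7 were lower with a median of -0.19 once the length trend was removed. *CYC7*, the minor cytochrome c isoform, had a TPM of 19.1, 21.2, 27.9 and 29.2 in *vph1∆* and of 57.9, 58.7, 61.8 and 55.8 in *fab1∆* (-1.25), while *SDH1* of succinate dehydrogenase and *QCR6* of complex III differed by -0.75 and -0.60. For *SDH1* wild type without replicate 3 (32.4 to 37.9) lay at or above *fab1∆*, and for *CYC7* (15.9 to 18.9) it lay below both strains.

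In cytochrome c oxidase 8 of 10 and in the nuclear genes of ATP synthase 14 of 17 were lower, with medians of -0.22 and -0.27. These genes are short, with median lengths of 321 and 348 bases, and with the length trend removed the medians were -0.02 and -0.07 and only 2 and 5 genes were lower. Among named genes, *COX26* (-1.02) and *COX5B*, the hypoxic isoform of subunit 5 (-0.84), stood far from *COX5A*, the aerobic isoform (-0.19), which was not called with the trend removed (-0.03). *STF1* and *STF2*, which stabilise or regulate the inhibited ATP synthase, differed by -1.05 and -0.90, and the inhibitor *INH1* by -0.54 (-0.28 with the trend removed). *STF1* had a TPM of 75.7, 80.3, 72.0 and 76.2 in *vph1∆* and of 166, 162, 158 and 149 in *fab1∆*.

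**Figure D5:**
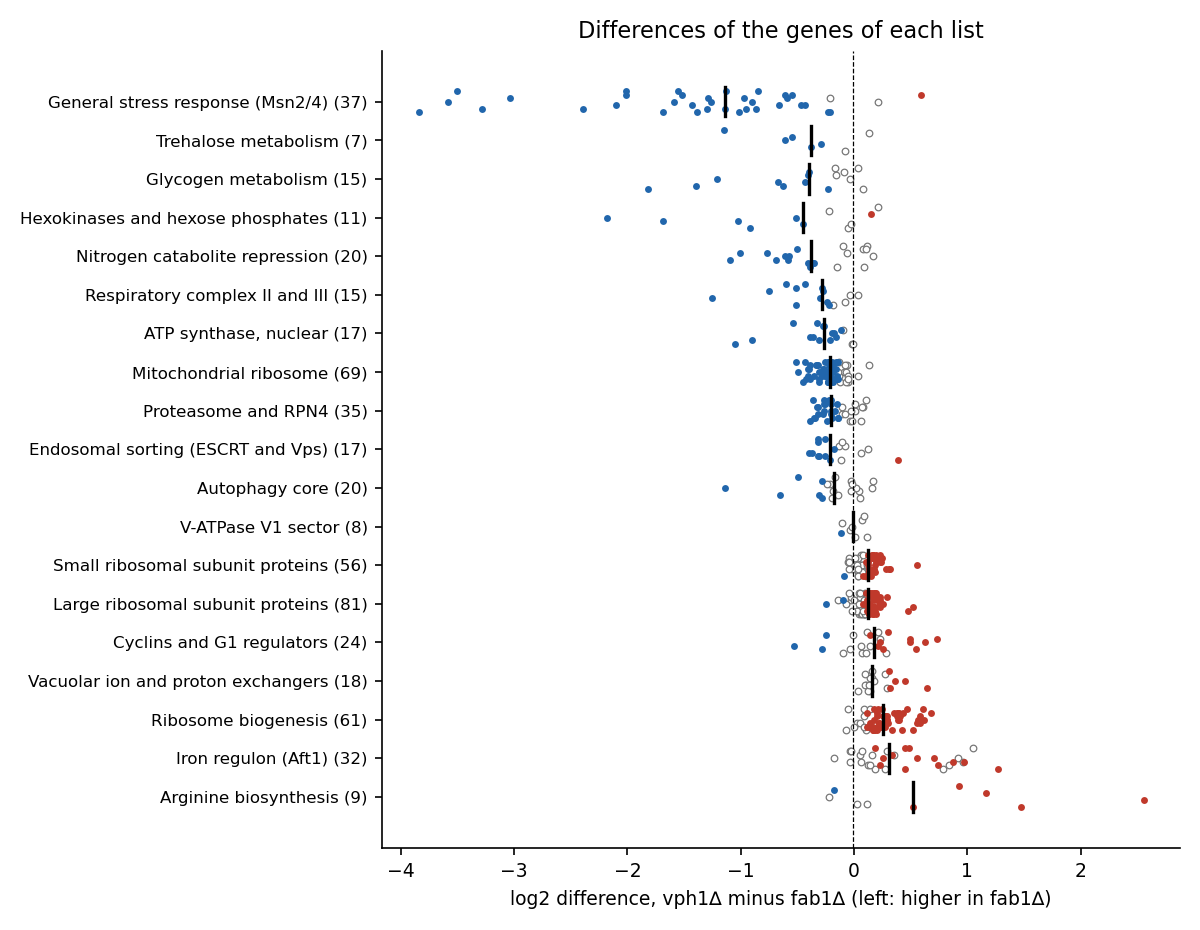
Each point is 1 gene tested, placed by its log2 difference, *vph1∆* minus *fab1∆*, in 19 lists with their number of genes in brackets; red genes were called higher in *vph1∆*, blue genes lower and open circles not called, black bars are list medians, and the dashed line is the median of all genes. The general stress response spreads down to -3.84, the mitochondrial ribosome and proteasome shift left as narrow groups, and arginine biosynthesis reaches 2.55.

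Most genes of the V-ATPase and PI(3,5)P2 lists were not called, as was the case for 3649 of all 6449 genes tested. Of the 8 V0 genes only *VPH1* was lower and only *VOA1*, an assembly factor of V0, was higher, by 0.19 (limma, adjusted p = 0.0074), although 4 were higher without *vph1∆* replicate 1 or with the length trend removed and 3 with median scaling. *STV1*, the homologue of *VPH1*, had a TPM of 17.9, 23.0, 22.6 and 19.7 in *vph1∆* and of 16.7, 17.4, 18.9 and 19.1 in *fab1∆*, an overlap, and was not called (0.19; limma, adjusted p = 0.084). It passed at 0.26 without *vph1∆* replicate 1 and at 0.22 with median scaling, and was 0.01 with the length trend removed. Of the 8 V1 genes 1 was lower and none higher, with a median of -0.01. No V1 gene was lower with median scaling, with the length trend removed, or without *vph1∆* replicate 3 or 4 or *fab1∆* replicate 1, 2 or 3, and 2 were lower and 2 higher without *vph1∆* replicate 1 and 2 lower without *vph1∆* replicate 2. Of 6 assembly factors *VMA22* was lower by 0.27 and *RAV2* by 0.15, the latter at an adjusted p of 0.048 (limma) that was lost without any 1 of 6 libraries (all 4 of *fab1∆*, and *vph1∆* replicates 2 and 4, where it was lower by 0.12 to 0.15). Neither was called with the length trend removed (-0.14 for *VMA22* and -0.11 for *RAV2*), when 2 other assembly factors were higher and 1 lower. In the PI(3,5)P2 list of 10 genes only *FAB1* was higher (3 with median scaling or without *vph1∆* replicate 1, when 2 were lower) and only *ATG18* lower. These genes are long, with a median length of 2634 bases, and with the length trend removed 4 were lower and the median of the list went from 0.12 to -0.12.

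Genes of vacuolar proteases and their inhibitors were lower in *vph1∆* than in *fab1∆* in several members. Of 15 protease and inhibitor genes 8 were lower and none higher. *PBI2*, the inhibitor of proteinase B, had 341 ± 29.5 in *vph1∆* and 475 ± 5.57 in *fab1∆* (-0.48, and -0.21 with the length trend removed). For *PBI2*, wild type without replicate 3 (271 to 323) overlapped *vph1∆* and lay below *fab1∆*. *ATG8*, the ubiquitin-like protein of the autophagosome membrane, had a TPM of 10.96, 11.6, 12.3 and 9.62 in *vph1∆* and of 26.4, 27.4, 24.4 and 24.2 in *fab1∆* (-1.14; limma, adjusted p = 3e-06), and *ATG10*, of its sister conjugation system, differed by -0.65. These were 2 of 6 lower genes among 20 of core autophagy, a share of 30.0% beside 25.5% of all genes tested, and none was higher (2 without *vph1∆* replicate 1).

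Among genes of endosomal sorting 10 of 17 were lower, with *DID4* of ESCRT-III at -0.40, and *BRO1* was the only one higher, by 0.39 (0.22 with the length trend removed). The median of these genes was -0.21, and -0.12 with 7 lower once the trend was removed. Metal and ion exchangers of the vacuole membrane were higher in 5 of 18 cases (27.8%, beside 17.9% of all genes tested) and lower in none. They were led by *YCF1*, a glutathione conjugate pump (0.64, and 0.33 with the length trend removed), with the zinc transporters *COT1* (0.45) and *ZRC1* (0.36). The count was 11 without *vph1∆* replicate 1 and 10 with median scaling. It was 4 with the length trend removed, when the list median went from 0.16 to 0.07, and none passed in the fit with all 16 libraries. *VAC17*, which links the vacuole to myosin for its inheritance by the bud, had a TPM of 20.8, 24.1, 23.6 and 22.3 in *vph1∆* and of 14.5, 14.4, 14.4 and 14.5 in *fab1∆* (0.61; limma, adjusted p = 2.2e-05). Of 18 regulators of TORC1 only *SLM4*, of the EGO complex on the vacuole, was called, lower by 0.20, and with the length trend removed it was not (-0.05), while 4 others were lower. With median scaling 5 of them were higher, and without *vph1∆* replicate 1 there were 7 higher and 3 lower.

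Cell surface genes held differences of both signs. Of 37 cell wall genes 12 were lower in *vph1∆* and 8 higher, shares of 32.4 and 21.6% beside 25.5 and 17.9% of all genes tested. *PIR3*, a heat-shock-induced wall glycoprotein, had a TPM of 13.8, 16.04, 14.8 and 16.04 in *vph1∆* and of 87.8, 87.6, 61.6 and 64.1 in *fab1∆* (-2.22), and the mannoproteins *CWP1* and *NCW2* differed by -0.99 each. *DSE4*, a daughter-specific glucanase that separates mother and daughter, had 15.1, 19.9, 20.6 and 17.2 in *vph1∆* and 6.79, 7.18, 7.73 and 8.07 in *fab1∆* (1.18; limma, adjusted p = 1.2e-05). For *DSE4* the *vph1∆* libraries lay in the range of wild type without replicate 3 (15.5 to 19.4) or next to it, and for *PIR3* both strains lay above it (6.21 to 7.11).

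Cell cycle transcripts were more often higher than lower in *vph1∆*. Of 24 cyclins and G1 regulators 10 were higher, 3 lower and 11 not called, with a median of 0.18 (15 higher with median scaling). *CLN2*, a G1 cyclin, had a TPM of 46.4, 57.3, 57.2 and 48.5 in *vph1∆* and of 30.8, 34.2, 33.8 and 35.2 in *fab1∆* (0.62), the mitotic cyclin *CLB2* differed by 0.73 and the S-phase cyclin *CLB6* by 0.55. For *CLN2*, wild type without replicate 3 (41.6 to 49.0) overlapped *vph1∆* and lay above *fab1∆*. *WHI5*, the inhibitor of G1 transcription, was lower by 0.53 (limma, adjusted p = 0.043). That call was lost without any 1 of the 4 *fab1∆* libraries (-0.47 to -0.58) and without *vph1∆* replicate 4 (-0.56).

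Mating genes checked the cell type and also differed. The 7 **a**-specific genes summed to a TPM of 13573 to 14040 in *vph1∆* and of 18680 to 21295 in *fab1∆*, and the 5 alpha-specific genes in the files to 13.9 to 18.2 and 21.3 to 23.5, so both strains had the transcripts of *MAT***a** cells. *MFA2*, a pheromone precursor, had 8508 ± 209.7 in *vph1∆* and 12383 ± 669.2 in *fab1∆* (-0.54), and *MFA1* also differed by -0.54. Both are very short genes, and with the length trend removed they differed by -0.23 and -0.24, while the median of the **a**-specific list went from -0.54 to -0.23. *AGA2*, the adhesion subunit of the a-agglutinin (-0.93), and *ASG7* (-0.82) were the other 2 of 4 lower genes of this list, and the alpha-agglutinin *SAG1* differed by -0.52. Meiotic genes summed to 36.3 to 46.3 in *vph1∆* and to 50.003 to 54.6 in *fab1∆*.

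In the list of haploid and pheromone response genes 13 of 19 were lower in *vph1∆* and 2 higher, with a median of -0.31 (4 higher with median scaling and 5 without *vph1∆* replicate 1). *FIG1*, a membrane protein of mating projections, had a TPM of 0.411, 0.610, 0.0880 and 0.370 in *vph1∆* and of 3.89, 4.03, 3.08 and 3.32 in *fab1∆*, and wild type without replicate 3 (0.410 to 0.469) lay with *vph1∆*. *FUS1*, needed for cell fusion, differed by -0.64. The 2 higher genes were *RME1*, by 0.21, named after its value was seen, and *HO*, the mother-cell endonuclease gene, with 24.6, 27.2, 28.5 and 26.8 in *vph1∆* and 15.9, 14.5, 14.9 and 13.8 in *fab1∆* (0.82), both below wild type without replicate 3 (34.6 to 40.0).

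The last of the 12 highest genes by the naming rule were an aspartate tRNA, *tD(GUC)N* (1.15), the open reading frame *YDR274C* (1.12) and a Ty1 element gene, *YBL005W-B* (0.97, and 0.62 with the length trend removed). The tRNA and the Ty1 gene belong to families of near-identical copies, so their levels are uncertain. The TPM of *tD(GUC)N* was 102, 111, 118 and 80.6 in *vph1∆* and 56.0, 25.6, 54.6 and 53.8 in *fab1∆*, without overlap but with 1 *fab1∆* library far below its group.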

How the data were processed

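RNA of 4 yeast strains, 4 libraries each, was sequenced, and the 4 *vph1∆* and 4 *fab1∆* libraries were compared. The authors deposited TPM values per gene, made with Salmon (version 0.8.1 in the submitters' processing notes) on sacCer3; the labels call the RNA polyA, whereas the protocol describes a directional kit without polyA selection. TPM keeps no read counts, so depth is unknown, sleuth, the test named in the methods, could not be rerun, and reads of close paralogs may be divided with error. Of 6844 gene identifiers 6011 matched RefSeq locus tags. No comparison column of the authors was used.

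Differences of log2(TPM + 1) were tested with limma 3.58.1 (R 4.3.3; trended variance, two-sided, Benjamini-Hochberg over 6449 genes with a mean TPM of 1 or more, threshold 0.05), after tests on simulated data. The deleted genes and their neighbours were also tested by an exact permutation test. P-values measure the spread between cultures of 1 strain each, not between independent segregants.

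Named genes were the 12 highest and 12 lowest called genes without overlap and with a mean TPM of 10 or more in the higher group, the deleted genes and their neighbours, *ARG1*, *ARG3* and *ARG4*, all genes of any list with 10 or fewer members and, of each larger list, the 4 called genes without overlap that differed most, or the 2 with the smallest p where none passed. Of the 306 genes this gives, 137 have values in the text; these were picked with their values in view, and the others enter through the counts of their lists where those are given. The comparison and the lists were chosen with earlier results of these data known. Upstream windows came from RefSeq R64. Alternatives covered the pseudocount, filters, median scaling, quantile normalization, other sets of libraries, variance models, array weights, the replicate block, the length trend and leaving out each library.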

Additional observations from a re-analysis of the deposited data

Results flagged for a closer look

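In 294 groups of 4 libraries examined for the genes in the text, 14 held a library far from the other 3 by Dixon's criterion, and chance flags about 1 in 20 groups. Of these, 5 were *vph1∆* replicate 3 and 4 were *fab1∆* replicate 3. In *vph1∆* replicate 3 the TPM of *GLK1* was 71.7 (others 76.6 to 77.5), of *PUT4* 1.62 (2.68 to 2.83) and of *CAR2* 4.82 (6.27 to 6.49), all low, while *ARG7* was 55.4 (51.2 to 51.5) and *ARG2* 8.197 (7.39 to 7.51), both high. In *fab1∆* replicate 3 *DDR2* was 734 (696 to 701) and *ARG3* 4.76 (3.52 to 3.69), both high, and *HXK2* was 318 (344 to 347) and *SHM2* 206 (224 to 227), both low.

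The deleted *VPH1* had a TPM of 0.191 in *vph1∆* replicate 1, against at most 0.0104 in the others. *IDP2* was 2.39 in *vph1∆* replicate 1 (2.94 to 2.98), *EMI2* was 17.2 in *vph1∆* replicate 4 (18.8 to 19.04), *YCL048W-A* was 17.3 in *fab1∆* replicate 1 (22.4 to 23.3) and *tD(GUC)N* was 25.6 in *fab1∆* replicate 2 (53.8 to 56.0).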

How the results depend on the processing

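Genes higher in *vph1∆* numbered 1763 with median scaling, 2025 with quantile normalization, 36 with all 16 libraries, 355 in replicates 1 and 2 alone, and 711 to 1876 with 1 library left out. Genes lower numbered 397 with all 16 libraries, 866 in replicates 1 and 2 alone and 1335 to 1697 with 1 library left out. The fit with all 16 libraries includes the spread of wild-type replicate 3, whose 10 most abundant genes held 31.2% of its TPM; it called 433 genes, all of them among the 2800. Of those 2800, 2549 kept their call with median scaling, 2489 with quantile normalization and 1863 of those with a known length once the length trend was removed, when 73 had the other sign.

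The difference of *FAB1* was 0.57 in replicates 1 and 2 alone (limma, adjusted p = 0.055). The CSS2 difference (0.02, not called) was -0.0171 without *vph1∆* replicate 2 and -0.0141 without *fab1∆* replicate 1, in a range of -0.0171 to 0.0745 with 1 library left out. With the length trend removed the RPS30A difference was 0.0181. Of 141 called genes with values in the text no other changed sign under the 23 alternatives.

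The replicate block gave 1446 genes higher and 1753 lower. Deviations of libraries with the same number correlated at 0.431, 0.00337, 0.309 and 0.0527 across genes for numbers 1 to 4. With *fab1∆* replicates 1 to 4, *vph1∆* replicate 1 correlated at 0.431, 0.257, -0.306 and -0.343. For *vph1∆* replicate 3 the values were -0.334, -0.280, 0.309 and 0.258. Those of *vph1∆* replicates 2 and 4 lay between -0.115 and 0.121, and both correlated best with another number. The main fit held no term for replicate number. With a term for replicates 1 and 2 against 3 and 4, 1322 genes were higher and 1748 lower. The part of a growth day was not tested. Without read counts, the depth behind low TPM values cannot be given.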

Other observations

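Genes of growth without sugar were lower in *vph1∆* than in *fab1∆*. Of 16 genes of gluconeogenesis and the glyoxylate cycle 11 were lower and none higher, with a median of -0.24, and with 1 library left out 8 to 11 were lower. *MDH2*, the cytosolic malate dehydrogenase, had a TPM of 16.3, 18.9, 20.5 and 21.6 in *vph1∆* and of 33.1, 35.3, 30.7 and 32.3 in *fab1∆*, a difference of -0.74 (limma, adjusted p = 9.8e-05). The strains did not overlap, and wild type without replicate 3 (15.8 to 17.9) lay with *vph1∆*. *IDP2*, the cytosolic isocitrate dehydrogenase, had 2.39, 2.98, 2.94 and 2.95 in *vph1∆* and 4.93, 5.40, 4.63 and 4.05 in *fab1∆*, a difference of -0.59 without overlap. *THI4*, of thiamine synthesis, had 4.35, 3.85, 3.71 and 3.10 in *vph1∆* and 11.6, 11.9, 10.1 and 10.4 in *fab1∆*, a difference of -1.34, again with wild type without replicate 3 (2.77 to 3.18) nearer to *vph1∆*.

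In sulfur metabolism 9 of 27 genes were higher in *vph1∆* and 1 lower (4 lower with the trend of differences with gene length removed). These were shares of 33.3 and 3.70% beside 17.9 and 25.5% of all genes tested. The median of the list was 0.01, close to that of all genes tested (-0.01). Its named members were permeases. The S-methylmethionine permease *MMP1* had a TPM of 8.11, 10.2, 11.04 and 10.6 in *vph1∆* and of 6.25, 5.93, 5.58 and 6.23 in *fab1∆* (0.64). The methionine permease *MUP1* and the S-adenosylmethionine permease *SAM3* differed by 0.46 and 0.42 without overlap, and for *MUP1* wild type without replicate 3 (108 to 128) lay above *fab1∆* and above all but 1 of the *vph1∆* libraries.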
